A study of Mus musculus with 12 samples.

Results

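Annexins are proteins that dock on membranes when calcium rises, and 10 genes of the family were followed: Anxa1, Anxa2, Anxa3, Anxa4, Anxa5, Anxa6, Anxa9, Anxa10, Anxa11 and Anxa13. They were taken by symbol from the 23988 genes of the deposited table, and 9 of them passed the filter on low values, which asked for at least 1 fpm in at least 3 libraries. The genes were chosen by family name with their levels in these same libraries, all 4 groups included, already known, so every count of called members is a description of the fit and supports nothing beyond it. The study sequenced RNA of the whole jejunum of adult mice, with 12 libraries in 4 groups of 3. WT mice served as the reference, AKO mice carried Rab11aL/L with VillinCreER+, a Cre that acts in the intestinal epithelium after tamoxifen, BKO mice were Rab11b-/-, and DKO mice joined Rab11aL/L, Rab11b-/- and VillinCreER+. Tamoxifen at a dose of 40 mg/kg was given in every group, 2 days before the tissue was collected. Whether the WT or BKO animals had the floxed allele or the Cre is not in the labels, nor is whether replicates were separate animals, so a p-value measures only the spread between these samples. Rab11a and Rab11b are small GTPases of recycling endosomes, and the comparisons ask what the loss of either or of both does to annexin transcripts.

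Each annexin has a conserved core of repeats that holds calcium and grips acidic phospholipids such as phosphatidylserine, and a variable N-terminal tail that recruits partners, among them S100 proteins. Through these contacts annexins take part in membrane repair, exocytosis and endosome traffic, in plasminogen activation at the cell surface (annexin A2) and in the damping of inflammation (annexin A1). In the small intestine annexins A2, A4 and A13 are known from the epithelium, while annexins A1, A5 and A6 are also made by stromal, blood and muscle cells. Whole jejunum holds all of these cells, and in such RNA more cells of a type and more RNA per cell cannot be told apart.

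The libraries held 19.2 to 29.8 M recovered reads (M for 1e6), and levels are given in fpm, the deposited read values scaled by size factors and not by gene length. Rab11b was 116 ± 5.07 fpm in WT and 27.0 ± 4.23 in BKO (SD, n = 3), and Rab11a was 186 ± 3.87 in WT and 59.4 ± 9.43 in AKO. DKO libraries held 106 ± 8.48 fpm of Rab11a and 22.9 ± 1.55 of Rab11b. Rab11a was 230 ± 39.7 fpm in BKO, with libraries from 200 to 275 fpm. BKO replicate 3 stood apart from the other BKO libraries: on the component that held 58.5% of the variance it lay at 52.8, near the DKO libraries at 64.1 to 71.6, while every WT, AKO and other BKO library lay between -36.7 and -27.2. Summed T and NK cell markers were 8.59 fpm in that library against 167 and 227 in the other BKO libraries, and summed B and plasma cell markers were 16.7 against 834 and 452. Xist, read from the inactive X of females, was 144 to 342 fpm in the 3 DKO libraries and 158 fpm in WT replicate 1, but 0.11 and 0.10 fpm in the other WT libraries. It was 201 and 254 fpm in BKO replicates 1 and 2 and 0.22 in BKO replicate 3, and 0.16, 223 and 0 fpm in AKO replicates 1 to 3. The main values that rest on BKO are therefore also given without BKO replicate 3.

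In WT jejunum the annexins spanned a wide range of levels. Per kilobase of exon, Anxa2 was the highest at 1120 fpm per kb, followed by Anxa4 at 300.3, Anxa13 at 149 and Anxa11 at 70.9. Anxa5 at 23.1 and Anxa6 at 17.6 fpm per kb followed, and these neighbours overlapped between libraries, with 18.1 to 31.8 for Anxa5 and 16.5 to 19.1 for Anxa6. Anxa1 stood at 6.09, Anxa3 at 3.33 and Anxa9 at 0.187 fpm per kb, and Anxa10 was at 0 in every WT library, where 3 reads over the group are 0.0371 fpm. Apart from Anxa5 and Anxa6, no neighbours in this order overlapped. In DKO the order was different: Anxa2 led at 2802 fpm per kb and Anxa4 followed at 599.7, but Anxa1 came next at 250.03, ahead of Anxa13 at 129 and Anxa11 at 93.3. Anxa3 reached 78.0 fpm per kb in DKO, with libraries from 73.3 to 82.0 that overlapped those of Anxa5 at 39.3 to 76.9.

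**Figure D1:**
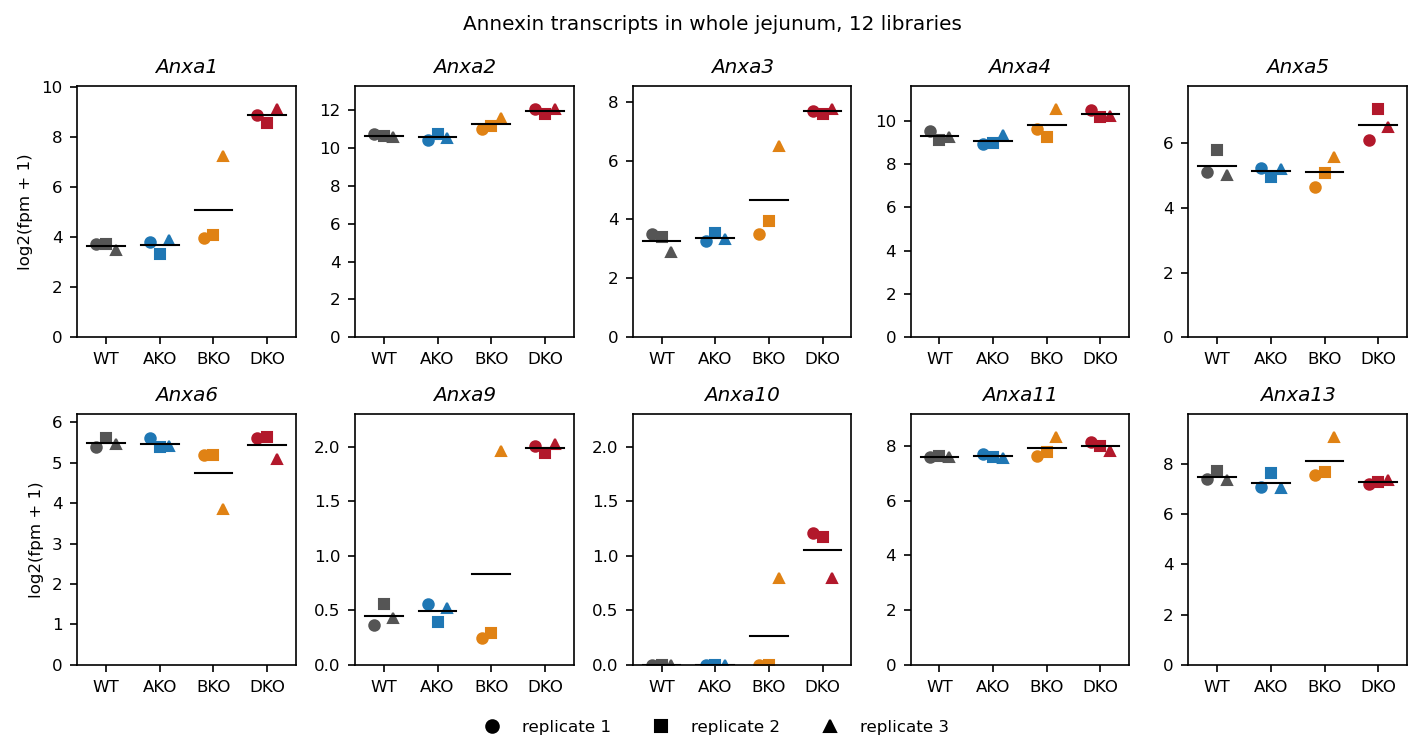
Level of each annexin in each library as log2(fpm + 1), grouped by genotype, with circles, squares and triangles for replicates 1, 2 and 3 and a line at the group mean. In DKO, Anxa1 and Anxa3 lie far above the WT and AKO libraries, and BKO replicate 3 (triangle) lies between them and the other BKO libraries.

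In DKO, 6 of 9 tested annexins were called higher than in WT and 0 lower, with Anxa1 and Anxa3 changing most. The 6 include Anxa9, which passed the filter only through DKO and BKO replicate 3. With the filter at 5 fpm, 5 of 8 tested annexins were called. Anxa1 encodes the glucocorticoid-responsive annexin whose tail peptide acts on formyl peptide receptors. It was 12.2, 12.1 and 10.3 fpm in WT replicates 1 to 3 and 478, 381 and 560.4 fpm in DKO, so the groups lay far apart. The ratio of means was 41.1, and the log2 change of (fpm + 1) was 5.23 ± 0.67 (SE; limma adjusted p = 0.000661). Anxa3, a small annexin abundant in neutrophils, was 10.3, 9.55 and 6.44 fpm in WT and 207, 193 and 216 fpm in DKO. Its ratio of means was 23.4 and its log2 change 4.42 ± 0.58 (adjusted p = 0.000746), again without overlap. Over all 13675 tested genes, 31.8% were called in this comparison and 14.6% were called higher, and the median log2 change was -0.01 against 1.25 for the 9 annexins. Because these genes were picked with the values in view, nothing is read from that contrast between the members and all genes. With the Xist level as a term in the fit 7 of 9 annexins were called, and 38.8% of all genes.

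Anxa2, the annexin that forms a tetramer with S100A10 and binds plasminogen and its activator, changed less in fold but gained the most level per kilobase. It was 1745, 1598 and 1518 fpm in WT and 4315, 3582 and 4269 fpm in DKO, with every DKO library above every WT library. Its log2 change was 1.32 ± 0.18 (adjusted p = 0.000922), and the ratio of means was 2.503. Anxa4, an epithelial annexin of apical and secretory membranes, was 730.0, 560.3 and 607 fpm in WT and 1442, 1169 and 1178 fpm in DKO. The groups did not overlap and the log2 change was 1.00 ± 0.28 (adjusted p = 0.0211), but this call was lost without WT replicate 2 (adjusted p = 0.0685), WT replicate 3 (0.0624) or DKO replicate 1 (0.0666). Anxa5, whose protein is the classic probe for exposed phosphatidylserine, was 33.7, 55.0 and 31.3 fpm in WT and 68.1, 133 and 90.5 fpm in DKO. The WT library with the most Anxa5 was still below the lowest DKO library, and the log2 change was 1.25 ± 0.30 (adjusted p = 0.00994).

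A pair of scarce annexins appeared in the same libraries. Anxa9, an atypical annexin with degenerate calcium sites, was covered by 7, 13 and 10 reads in WT and by 62, 75 and 67 reads in DKO. These counts are 0.285, 0.475 and 0.346 fpm in WT and 3.01, 2.84 and 3.06 fpm in DKO, a ratio of means of 8.05. The log2 change of (fpm + 1) was 1.54 ± 0.37 (adjusted p = 0.0106), a scale that understates the change of so low a gene, and the gene passed the filter only through DKO and BKO replicate 3. Anxa10, an annexin best known from gastric epithelium, had 0 reads in the 6 WT and AKO libraries and in BKO replicates 1 and 2. It had 20 reads in BKO replicate 3 (0.734 fpm) and 27, 33 and 16 reads in DKO (1.31, 1.25 and 0.732 fpm). With the floor set at 3 reads over the group, DKO was at least 29.5-fold higher than WT, and Anxa10 failed the filter and was not tested. Such floors cover counting error only. All 6 listed markers of gastric or squamous epithelium were at 0 in every WT library. In DKO the gastric markers Gkn1, Gkn2, Tff1 and Muc5ac were at 0 in every library. The squamous keratins Krt14 (1.16, 2.12 and 2.52 fpm) and Krt5 (0.194, 0.681 and 0.457 fpm) were read in each DKO library. Of these markers 1 of 1 tested, Krt14, was called higher, and it passed the filter only through DKO and BKO replicates 2 and 3. In BKO replicates 1, 2 and 3 Krt14 was 0.881, 2.08 and 4.44 fpm, and Krt5 was 0, 0 and 0.55 fpm. The part of these markers in the Anxa10 level was not tested.

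The remaining annexins were not called in DKO. Anxa11, which links membranes through a long N-terminal tail to the ALG-2 and sorcin proteins, was 191, 197 and 191 fpm in WT and 283, 254 and 225 fpm in DKO. Every DKO library was above every WT library, but the log2 change of 0.39 ± 0.17 missed the threshold (adjusted p = 0.0973), and without BKO replicate 3 in the fit it passed at the same size (0.00934). Anxa6, the annexin with a duplicated core, was 41.1, 47.7 and 42.6 fpm in WT and 48.0, 48.9 and 32.8 fpm in DKO, with overlap. Its log2 change was -0.04, with a 95% interval from -0.72 to 0.65, and the sign turned with one-total scaling (0.05) and with quantile normalization (0.02). Anxa13, the intestine- and kidney-type annexin tied to apical transport in dog kidney cells, was 166, 208 and 163 fpm in WT and 147, 155 and 162 fpm in DKO. All DKO libraries were below all WT libraries by a small margin, and the log2 change of -0.20 was not called (95% interval -0.94 to 0.54). In all, 7 of 9 tested annexins had every DKO library above every WT library, a pattern met by 25.5% of all tested genes. The 7 include Anxa9, which passed the filter only through DKO and BKO replicate 3.

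**Figure D2:**
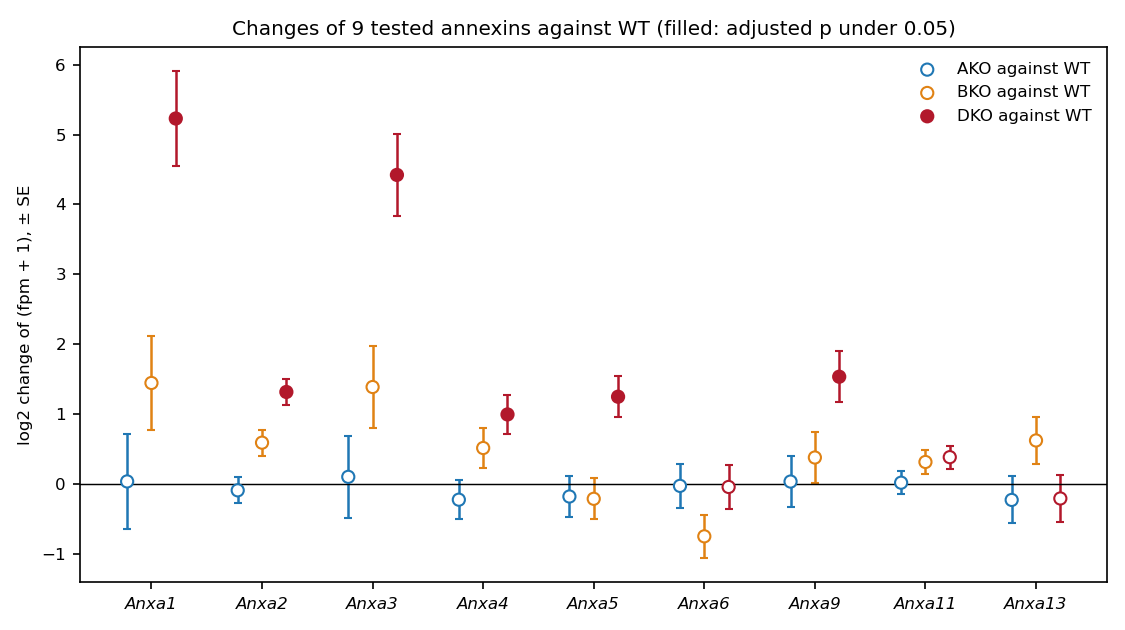
Log2 change of (fpm + 1) against WT for the 9 tested annexins in AKO, BKO and DKO, with bars for ± SE of the limma fit and filled points for an adjusted p under 0.05. Filled points occur only for DKO, at 5.23 for Anxa1, 4.42 for Anxa3 and 1.00 to 1.54 for Anxa2, Anxa4, Anxa5 and Anxa9, and all 3 comparisons share the WT libraries.

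The promoters of genes that differed in DKO show what sequence lies at their start sites. RefSeq promoters of build GRCm38.p6, from 250 bases before to 50 bases after the start, were found for 7 of the 10 annexins, with 9 promoters in all. Those of Anxa1, Anxa2 and Anxa10 are printed because they were the promoters with a match to any of 3 motifs, searched on both strands and picked after the values were known. The motifs were the AP-1 site TGANTCA, the TEAD site GGAATG and the TATA box TATAAA, and capitals mark them on the strand of the gene, with no overlap between motifs.
Anxa1, chr19:20390622-20390921, minus strand: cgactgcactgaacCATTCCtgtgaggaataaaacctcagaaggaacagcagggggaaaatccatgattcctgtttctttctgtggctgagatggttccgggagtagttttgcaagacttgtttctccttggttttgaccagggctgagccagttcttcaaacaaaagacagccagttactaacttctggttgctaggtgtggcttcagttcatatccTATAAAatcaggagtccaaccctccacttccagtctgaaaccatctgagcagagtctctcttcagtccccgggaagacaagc
Anxa2, chr9:69453433-69453732, plus strand: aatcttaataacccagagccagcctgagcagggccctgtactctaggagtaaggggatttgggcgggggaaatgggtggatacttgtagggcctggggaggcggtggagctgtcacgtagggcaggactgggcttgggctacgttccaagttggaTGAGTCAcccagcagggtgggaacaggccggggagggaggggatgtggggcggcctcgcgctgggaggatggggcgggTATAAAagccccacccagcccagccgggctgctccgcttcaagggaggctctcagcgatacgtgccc
Anxa10, chr8:62123144-62123443, minus strand: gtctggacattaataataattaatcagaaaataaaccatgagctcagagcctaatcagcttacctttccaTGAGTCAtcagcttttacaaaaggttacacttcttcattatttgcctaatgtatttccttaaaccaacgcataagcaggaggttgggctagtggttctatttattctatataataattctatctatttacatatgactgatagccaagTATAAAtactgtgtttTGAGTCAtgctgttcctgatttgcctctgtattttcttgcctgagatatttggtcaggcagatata
In the Anxa1 promoter the TEAD letters were on the opposite strand at -236 and a TATA box was at -32, counted from the start site to the motif's upstream end. The Anxa2 promoter held an AP-1 match at -95 and a TATA box at -17. The promoter of Anxa10 held AP-1 matches at -180 and -16 and a TATA box at -32. None of the motifs was in these windows of Anxa4, Anxa5, Anxa9 or Anxa11. Over all 32851 promoters of the table, 7.81% held the AP-1 letters, 14.7% the TEAD letters and 13.6% the TATA box, so a match in 2, 1 and 3 of 9 annexin promoters is given as a description of the letters, not of binding.

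Loss of Rab11a alone left the annexins near their WT levels. In AKO, 0 of 9 tested annexins were called by limma, and 0 had an unadjusted p under 0.05. The background was as low: 0.00731% of all genes, a single gene, were called, with 136 genes at an unadjusted p under 0.05. The edgeR quasi-likelihood test called 1 gene and DESeq2 called 3 over all genes, with 0 annexins in either. Log2 changes of the annexins ran from -0.22 for Anxa13 to 0.11 for Anxa3. Anxa1, the annexin that changed most in DKO, was 13.1, 9.10 and 13.9 fpm in AKO, on both sides of the WT libraries, and its log2 change was 0.04 with a 95% interval from -1.45 to 1.53. The spread behind that interval is common to all 4 groups in the fit, BKO included. Anxa9 was at 15, 8 and 10 reads in AKO, near its WT counts.

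Loss of Rab11b alone gave no annexin call, and 1 of its libraries stood apart from the others. Anxa1 was 14.6 and 15.9 fpm in BKO replicates 1 and 2 and 149.5 fpm in BKO replicate 3. Anxa3 followed it, with 10.4 and 14.5 fpm in the first pair and 88.8 fpm in replicate 3. Anxa2 was 2058, 2304 and 3081 fpm, above WT in all 3 libraries. By limma 0 of 9 annexins were called (0.0439% of all genes were), and 3 annexins had an unadjusted p under 0.05, Anxa2, Anxa3 and Anxa6. Of all 13675 tested genes, 1466 had an unadjusted p under 0.05 in that comparison. DESeq2 on recovered reads called 2, Anxa1 (adjusted p = 0.0336) and Anxa2 (0.0326), and edgeR called 0. Over all genes DESeq2 called 249 (1.37%) and edgeR 5 (0.0337%) in that comparison. A missing DESeq2 adjusted p, as for Anxa3, was counted as no call. The log2 change was 1.45 ± 0.67 for Anxa1 (adjusted p = 0.472), 1.39 ± 0.58 for Anxa3 (0.44) and 0.60 ± 0.18 for Anxa2 (0.358). Without BKO replicate 3 these changes were 0.38 for Anxa1, 0.47 for Anxa3 and 0.43 for Anxa2, and none was called. All 3 BKO libraries were above all 3 WT libraries for these 3 of 9 annexins, against 9.58% of all tested genes.

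BKO replicate 3 was the highest BKO library for 8 of 9 tested annexins, against 43.4% of all genes, and its profile differed from that of DKO. The 8 include Anxa9, which passed the filter only through DKO and this same library. The ratio of BKO replicate 3 to the WT mean was 13.0 for Anxa1, 10.1 for Anxa3 and 7.86 for Anxa9. The 2.90 fpm of Anxa9 in that library (79 reads) lay inside the DKO range. For Anxa13 it was 3.04, with 544 fpm in replicate 3 against 189 and 203 fpm in the other BKO libraries, so Anxa13 was high in this library and not in DKO. Anxa4 at 1503 fpm and Anxa11 at 324 fpm were also above every DKO library in that replicate. Anxa6 went the other way: it was 35.4 fpm in BKO replicates 1 and 2 and 13.4 fpm in replicate 3, below all WT libraries, with a log2 change of -0.74 ± 0.31 in BKO (adjusted p = 0.44) and -0.30 without replicate 3. Smooth muscle markers summed to 370.2 fpm in that library and to 937 and 1215 fpm in the other BKO libraries; the part of cell makeup in the Anxa6 level was not tested. Fibroblast markers summed to 276 fpm in BKO replicate 3 against 223 to 320 fpm in WT, and neutrophil markers to 1.06 fpm against 0.489 to 1.17 fpm. Mesothelial markers summed to 25.9 fpm there and to 18.2 and 31.9 in BKO replicates 1 and 2, against 7.94 to 13.9 fpm in WT. For gastric or squamous epithelium the sums were 4.99 fpm there and 0.881 and 2.08 fpm in those replicates, against 0 in WT. The part of these cell types in the annexin levels of BKO replicate 3 was not tested.

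**Figure D3:**
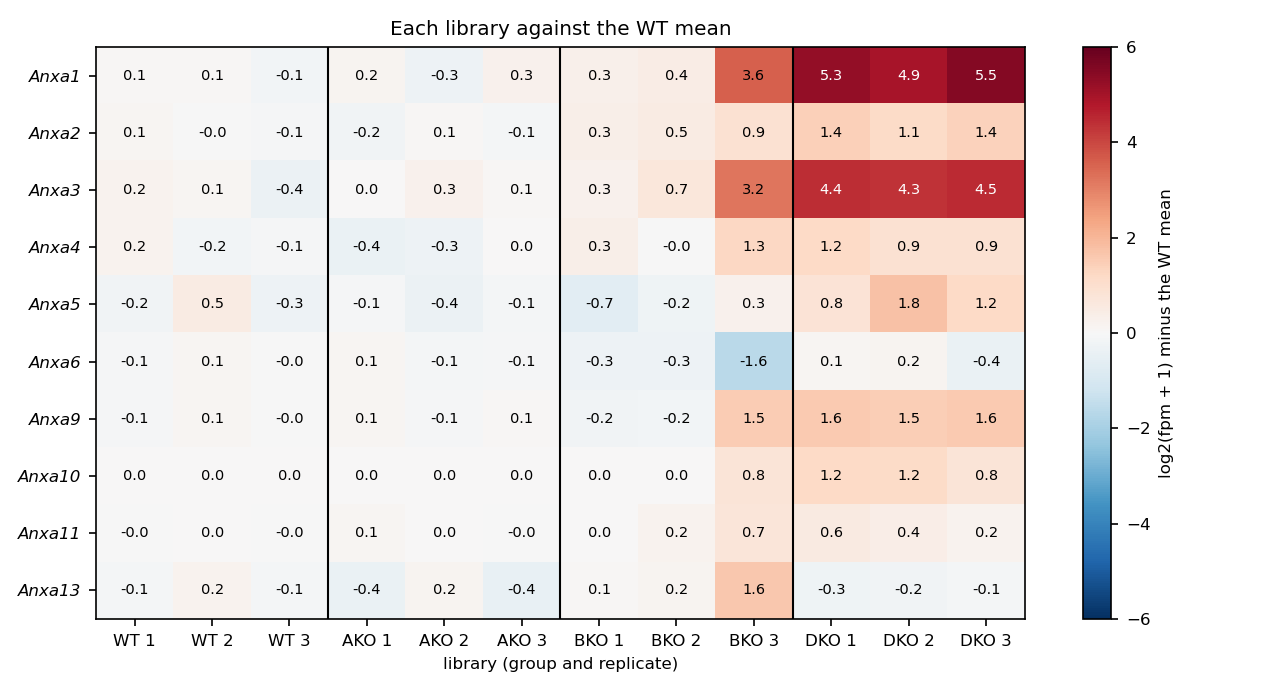
Log2(fpm + 1) of each annexin in each library minus the mean of the 3 WT libraries, with the number in each cell and red for higher. The DKO columns are red for Anxa1 to Anxa5, Anxa9 and Anxa10, and BKO replicate 3 is the only other column with values of 1 or more in size, including 1.6 for Anxa13 and -1.6 for Anxa6.

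Set against the single losses, DKO was higher for most of the annexins that it raised over WT. Against AKO, 6 of 9 were called higher and 0 lower, where 15.3% of all genes were called higher. The log2 changes were 5.19 ± 0.67 for Anxa1, 4.32 ± 0.58 for Anxa3, 1.499 ± 0.37 for Anxa9, 1.43 ± 0.30 for Anxa5, 1.41 ± 0.18 for Anxa2 and 1.22 ± 0.28 for Anxa4. Against BKO, 5 of 9 were called higher and 0 lower, where 23.0% of all genes were called in either direction. Both counts include Anxa9, which passed the filter only through DKO and BKO replicate 3. Anxa1 differed by 3.78 ± 0.67 (adjusted p = 0.00428) and Anxa3 by 3.03 ± 0.58 (0.00576), and without BKO replicate 3 these were 4.85 and 3.95. Anxa5 differed by 1.46 ± 0.30 (0.00697), and its BKO libraries at 24.3 to 46.9 fpm were all below DKO. Without BKO replicate 3 it differed by 1.70 (0.000952).

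The smaller differences from BKO depended on single libraries. The call for Anxa2 (log2 change 0.72 ± 0.18, adjusted p = 0.018) was lost without BKO replicate 1 (0.0795), BKO replicate 2 (0.0584), DKO replicate 1 (0.0525) or DKO replicate 3 (0.0505). That for Anxa9 (1.15 ± 0.37, adjusted p = 0.0445, with overlap) was lost without any 1 library other than BKO replicate 3, at adjusted p of 0.057 to 0.165. Anxa4 was not called (0.48 ± 0.28, adjusted p = 0.236), but was without BKO replicate 3 (0.85, 0.0037). Without that library Anxa2 differed by 0.89 (0.00124) and Anxa9 by 1.72 (1.83e-05), and 6 of 9 annexins were called where 45.6% of all genes were. In that fit Anxa9 passed the filter only through DKO. Anxa13 was lower in each DKO library than in each BKO library (log2 change -0.83 ± 0.34), a difference that limma did not call (adjusted p = 0.0987) and DESeq2 did (0.0244). Without BKO replicate 3 its log2 change was -0.34 (limma adjusted p = 0.129). With the 2 groups fitted alone, 0 annexins were called against BKO. Scaling every library to 1 total moved the median of all genes by 0.15 on the log2 scale in this comparison and by 0.11 in the interaction, and left 5 and 0 annexins called.

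The interaction asks how far the DKO change exceeds the sum of both single changes on the log2 scale. It was positive for Anxa1 (3.74 ± 0.95, adjusted p = 0.0534), Anxa3 (2.92 ± 0.83, 0.0675), Anxa5 (1.63 ± 0.42, 0.0539) and Anxa2 (0.81 ± 0.26, 0.0927), and limma called 0 of 9 annexins, with 4 at an unadjusted p under 0.05. Of all 13675 tested genes, 3263 had an unadjusted p under 0.05 in the limma interaction, and 3.96% were called. Among annexins edgeR called 0 and DESeq2 called 3, Anxa1, Anxa2 and Anxa5. Over all genes edgeR called 2.37% and DESeq2 9.8% in the interaction. A missing DESeq2 adjusted p, as for Anxa3, was counted as no call. Without BKO replicate 3 the same fit called 6: Anxa1 (4.81, adjusted p = 4.79e-06), Anxa3 (3.84, 8.99e-06), Anxa9 (1.68, 0.000334), Anxa5 (1.87, 0.00537), Anxa2 (0.98, 0.00688) and Anxa4 (1.07, 0.00883). In that fit 30.6% of all genes were called, so the rise in calls was not limited to annexins, and Anxa9 passed the filter only through DKO. The comparisons share libraries, WT and DKO among them, so these values restate differences already given.

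Genes whose products work with annexins were examined in DKO against WT as lists, beside the median log2 change of -0.01 over all genes, of which 14.6% were called higher and 31.8% in either direction. Of 6 S100 partners, 5 were called higher and 0 lower, with a median of 1.30. S100a6, a partner of several annexins, was 179, 179 and 182 fpm in WT and 2755, 2057 and 2799.9 fpm in DKO (log2 change 3.80 ± 0.52, adjusted p = 0.000878). S100a11, the partner of annexin A1, was 78.0, 88.5 and 68.3 fpm in WT and 789.5, 661 and 733 fpm in DKO (3.21 ± 0.36, 0.000363). Both were far above WT in every DKO library, and BKO replicate 3 held 2293 fpm of S100a6 and 484 fpm of S100a11. S100a4 differed by 1.90 and S100a1 by 0.70. S100a10, the partner of annexin A2, was chosen after its values were seen: it was 725 to 759 fpm in WT and 947 to 1475 fpm in DKO (0.71 ± 0.20, adjusted p = 0.0229), and its call was lost without WT replicate 1 (0.0609), WT replicate 2 (0.0658), WT replicate 3 (0.0601), DKO replicate 1 (0.0644) or DKO replicate 3 (0.0763).

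Plasminogen activation, which cell-surface annexin A2 assists, had 4 of 5 tested genes called higher and 0 lower, with a median of 3.05. The activators Plat (tissue type) and Plau (urokinase) led it. Plat was 7.71, 5.19 and 5.74 fpm in WT and 81.7, 132 and 115 fpm in DKO (3.93 ± 0.43, adjusted p = 0.000339). Plau was 3.71, 3.15 and 4.05 fpm in WT and 37.0, 32.8 and 42.1 fpm in DKO (3.05 ± 0.28, 0.000142). The urokinase receptor gene Plaur differed by 4.15 ± 0.65 (0.0016). Serpine2, an inhibitor of both activators, differed by 0.95 ± 0.31 (adjusted p = 0.0402). Its call was lost when WT replicate 1 (0.0879), replicate 2 (0.122) or replicate 3 (0.0624) was left out, as it was without AKO replicate 1 (0.0528) or 3 (0.0533) and without DKO replicate 1 (0.136) or 2 (0.0846). It was also lost with no filter (0.0569; edgeR 0.0573) and with quantile normalization (0.0508). The list of annexin A1 receptors, phospholipase A2 and regulators was mixed, with 2 of 6 tested genes higher and 2 lower and a median of 0.14. Ptgs2, the inducible prostaglandin synthase, was 1.46 to 2.24 fpm in WT and 17.8 to 22.3 fpm in DKO (2.81 ± 0.21, 5.75e-05), and Nr3c1, the glucocorticoid receptor, was 213 to 236 fpm in WT and 80.1 to 91.2 fpm in DKO (-1.41 ± 0.20, 0.00101). Pla2g4a, the calcium-dependent phospholipase A2, differed by 0.62 and the channel kinase gene Trpm7 by -0.46. The count of 4 called genes in that list fell to 2 without WT replicate 3 or without DKO replicate 2.

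**Figure D4:**
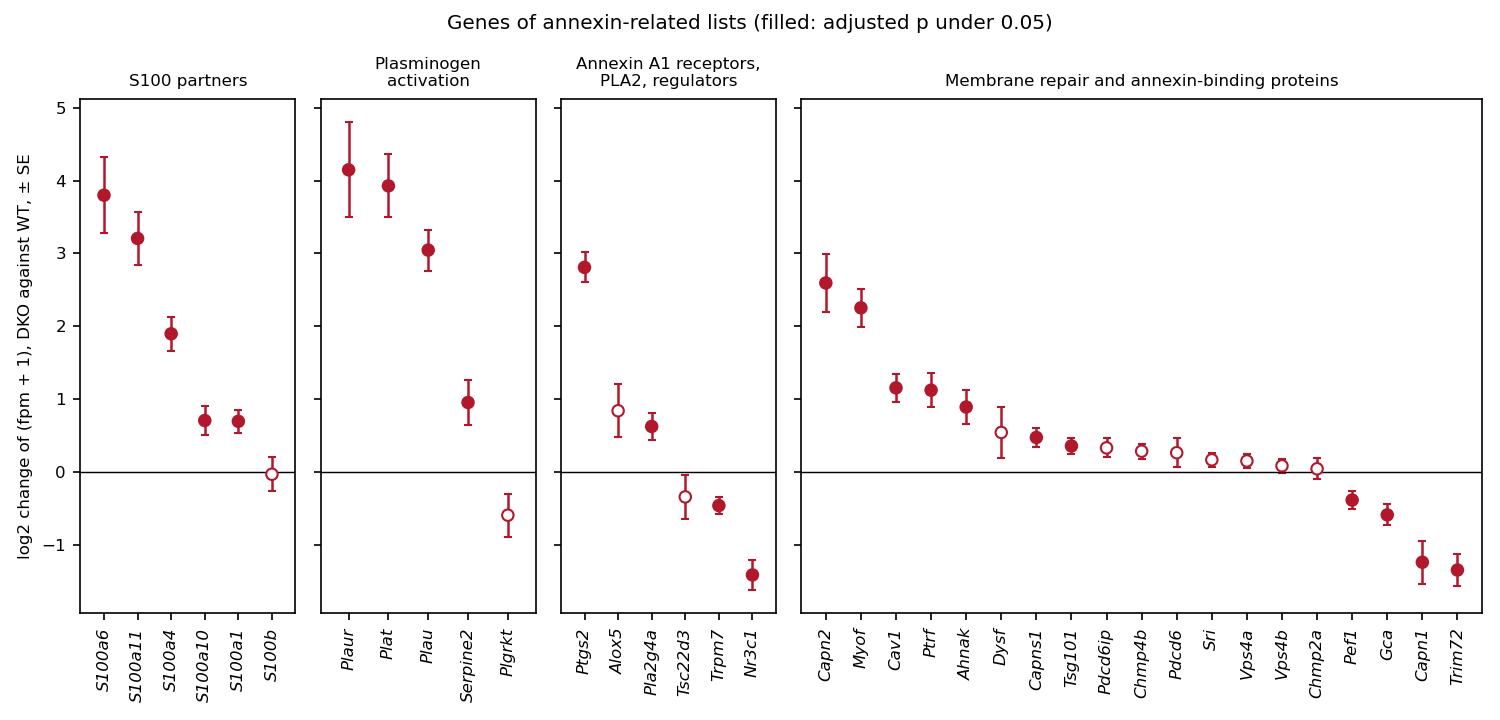
Log2 change of (fpm + 1) in DKO against WT for genes of 4 annexin-related lists, with bars for ± SE of the limma fit and filled points for an adjusted p under 0.05. Most S100 partners and plasminogen activation genes lie above 0, up to 3.80 for S100a6 and 4.15 for Plaur, while the other lists hold filled points on both sides.

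Other annexin-related lists had called genes in both directions, against 14.6% of all genes called higher and 31.8% called in all. Of 19 genes of membrane repair and annexin binding, 7 were called higher and 4 lower, with a median of 0.29. Myof, a ferlin of membrane resealing, differed by 2.25 ± 0.26 (adjusted p = 0.000409), Capn2, a calpain subunit, by 2.59 ± 0.40 (0.00151), the caveolin gene Cav1 by 1.15 ± 0.19 (0.00184) and Trim72, a repair protein of muscle, by -1.35 ± 0.22 (0.00202). Without WT replicate 2 or WT replicate 3 the count of 11 called genes was 7. For phosphatidylserine exposure 2 of 7 genes were called higher and 1 lower with a median of 0.00: the scramblase-family gene Plscr1 differed by 2.45, the flippase gene Atp11a by 1.02 and the scramblase gene Xkr8 by -0.64. The call for Xkr8 (adjusted p = 0.0437) was lost in 8 of the 12 fits that each left out a library. Among 7 apical sorting partners of annexin A13, 1 was called higher and 3 lower with a median of -0.08. Dpp4, an apical peptidase used to follow this route, was 849 to 950.2 fpm in WT and 193 to 231 fpm in DKO (-2.08 ± 0.37, adjusted p = 0.0028), and the microvillus genes Vil1 and Myo1a differed by -0.94 and -0.96. The sorting gene Mal2 differed by 0.44. The count of 4 was 2 without WT replicate 1 or DKO replicate 3.

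A list of fetal-like or injured epithelium, written with earlier results known, had 11 of 12 tested genes called higher and 0 lower with a median of 2.99. Of all genes, 14.6% were called higher in DKO against WT. Areg and Ereg, ligands of the EGF receptor, differed by 5.41 ± 0.51 and 2.87 ± 0.24, Ctgf, a YAP target, by 2.53 ± 0.27 and Msln by 2.53 ± 0.29. In AKO and in BKO against WT, 0 genes of each of these 7 lists were called. In the interaction, 5 of 12 tested genes of the fetal-like list and 2 of 5 of plasminogen activation were called higher. So were 1 of 6 S100 partners and 1 of 6 tested genes of the annexin A1 list. Over all 13675 tested genes, 284 were called higher in the interaction.

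Markers of the cell types that make annexins also differed between WT and DKO, and their part in the annexin levels was not tested. Of all 13675 tested genes, 1995 were called higher and 2353 lower in this comparison. Enterocyte markers summed to 27667 to 31297 fpm in WT and 11554 to 14487 fpm in DKO, with 9 of 13 tested markers lower and 0 higher. Fibroblast markers summed to 223 to 320 fpm in WT and 714 to 1149.6 fpm in DKO, with 6 of 6 higher. Macrophage markers summed to 190 to 442 fpm in WT and 348 to 584 fpm in DKO, with 2 of 6 higher, and WT replicate 2, the WT library with the most Anxa5, also held the most macrophage markers of the WT libraries. Neutrophil markers summed to 0.489 to 1.17 fpm in WT and 3.98 to 10.6 fpm in DKO, with 1 of 1 tested marker higher. That marker, Csf3r, passed the filter only through DKO, where it was 1.26, 2.76 and 2.20 fpm, against at most 0.914 fpm in WT. S100a9 was 0.873, 2.16 and 5.08 fpm in DKO and at most 0.256 fpm in WT, S100a8 and Retnlg were at 0 in WT and at 0.533 to 2.56 and 0.681 to 1.31 fpm in DKO, and Mpo and Elane were at 0 in every DKO library. Mesothelial markers summed to 7.94 to 13.9 fpm in WT and 63.4 to 77.1 fpm in DKO, with 3 of 3 higher, although Msln is in the fetal-like list too. T and NK cell markers summed to 209 to 240 fpm in WT and 18.8 to 46.9 fpm in DKO, with 3 of 6 lower. Smooth muscle and endothelial markers had 0 called genes of 6 and of 5.

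Across the 12 libraries the annexins fell into patterns that the correlation of log2(fpm + 1) describes. Libraries of a group share their genotype, so r is given over 12 libraries and with no p. Anxa1 and Anxa3 were the closest pair (r = 0.99), and Anxa9 (0.97) and Anxa2 (0.95) followed Anxa1. Anxa6 and Anxa13 ran opposite to each other (r = -0.90), and BKO replicate 3 held the lowest Anxa6 and the highest Anxa13 of all libraries. Over all tested genes, the closest to Anxa1 were Arhgap40 (r = 0.993), Il1rn (0.993) and Lipn (0.991), and those closest to Anxa3 were Il1rn, Spry2 and Arhgap40 (0.991 each). Anxa2 was closest to Cldn4 (0.987), Aprt (0.986) and Rap2b (0.982), Anxa4 to Mst1r (0.978), Rlim (0.977) and Qsox1 (0.974), and Anxa9 to Prrg4 (0.990), Tinagl1 (0.987) and Fam162a (0.986). Anxa5 was closest to Tmem173 (0.950) and Mapk11 (0.942), and Anxa11 to Abcb11 (0.974), Mink1 (0.958) and Abcc5 (0.953). Anxa6 was closest to Ptpn11 (0.947), Itpkb (0.935) and Grn (0.929). Anxa13 was closest to the superoxide dismutase gene Sod1 (0.948), the fatty acid binding protein gene Fabp1 of enterocytes (0.917) and the respiratory chain assembly gene Cox15 (0.904).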

How the data were processed

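Whole jejunum RNA was made into libraries with a kit that does not mark strand, per the labels' protocols, so reads of a gene and of an overlapping antisense gene cannot be told apart. Per the submitters' processing notes, the authors used FastQC 0.11.3, Trimmomatic 0.36 and DESeq2, with build mm9. The program that counted reads, the gene models and the filters were not given in the sources used here. Deposited signal values (fpm in the table, taken as fragments scaled by a size factor per library) were whole multiples of 1 step in each library for 100% of values, within 0.001 reads. Steps of 0.0313 to 0.0563 gave the recovered reads.

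Groups came from the labels. limma 3.58.1 (R 4.3.3) was fitted with a trended prior to log2(fpm + 1) of the 13675 genes with at least 1 fpm in at least 3 of 12 libraries, with 1 coefficient for each group. Calls had a two-sided Benjamini-Hochberg adjusted p under 0.05 over all tested genes. The interaction took the DKO change against WT less the AKO change and less the BKO change. The plan assumed normalized values, so edgeR 4.0.16 and DESeq2 1.42.0 were run on recovered reads as alternatives. The limma test was checked on simulated data. An adjusted p that DESeq2 gave as NA was counted as no call, as for Anxa3. Exon lengths came from GENCODE annotation of GRCm38, and that of Anxa13 from a noncoding transcript model.

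The members, lists, tests and motifs, and S100a10, were chosen with earlier results of these data known. Named list genes were up to 4 called genes with the smallest p in DKO against WT, and genes of like pattern were the 3 with the highest Pearson r, passing over symbols of predicted or unnamed genes. The table holds 2 further annexin rows that are not reported here, nor is 1 gene of the lists and of the genes of like pattern.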

Additional observations from a re-analysis of the deposited data

How the results depend on the processing

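Alternatives were pseudocounts of 0.1 and 5, no filter, a filter at 5 fpm, scaling to one total, median-of-ratios and quantile scaling, fits of only the groups compared, quality weights (which stopped short of convergence), a replicate block, the Xist level as a term, edgeR, DESeq2, each library left out in turn, and BKO replicate 3 with WT replicate 2 left out. The counts of annexins called in the AKO and DKO comparisons with WT and in DKO against AKO kept within 1.5 times or at 0 in all of these. Replicate numbers did not pair the samples: of 18 same-numbered pairs of libraries, 4 had a correlation of deviations over 0.1 (range -0.30 to 0.18). With the replicate block, 6 annexins were called in DKO against WT, and over all genes 3 in BKO against WT and 329 in the interaction. Over all genes in DKO against WT, edgeR called 4145 and DESeq2 5165. The cause of the changes below was not tested.

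Annexins called in BKO against WT numbered 2 with DESeq2. In DKO against BKO they were 0 with only the groups compared and 3 to 6 with a library left out. In the interaction they were 1 with a pseudocount of 5, 2 with quantile normalization, 6 with quality weights, 3 with the Xist term, 3 with DESeq2, 6 with both libraries left out and 0 to 6 with a library left out.

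Of all genes in AKO against WT, 2 were called with no filter, 0 with only the groups compared, 4 with quality weights and 3 with DESeq2. In BKO against WT 3 were called with the filter at 5 fpm, 2 with only the groups compared, 50 with quality weights, 249 with DESeq2 and 3 to 9 with a library left out. With quality weights DKO gave 9655 calls against WT, 9368 against AKO and 6134 against BKO, and the interaction gave 4752. In DKO against BKO 699 were called with only the groups compared and 6193 with both libraries left out. In the interaction 1717 were called with the Xist term, 352 with edgeR, 1783 with DESeq2 and 3428 with both libraries left out. With a library left out DKO gave 2691 to 6153 calls against WT, 2782 to 6203 against AKO and 1631 to 6224 against BKO, and the interaction gave 94 to 4181.

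Log2 changes near 0 turned sign. With a library left out, AKO against WT ran from -0.0651 to 0.215 for Anxa1 and from -0.0772 to 0.223 for Anxa3. BKO against WT ran from -0.445 to 0.0409 for Anxa5 and from -0.18 to 0.68 for Anxa9, and Anxa9 was -0.13 with both libraries left out. Anxa6 in DKO against WT was 0.0489 with one-total scaling, 0.0199 with quantile normalization, 0.18 with quality weights, 0.00057 with edgeR, 0.0236 with both libraries left out and -0.14 to 0.15 with a library left out. Anxa13 in DKO against WT was 0.0362 with the Xist term. One-total scaling moved the share of called genes that were higher from 45.9% to 54.9% for DKO against WT, from 47.6% to 68.2% against BKO and from 52.5% to 67.2% for the interaction. Depth limits Anxa9 and Anxa10, which rest on at most 79 and 33 reads in a library.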
